A study of Rattus norvegicus with 16 samples.

Results

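Neural stem and progenitor cells that had spent 6 d without any added growth factor were read on 4 two-colour cDNA arrays, out of 16 arrays in the whole series. The 4 arrays were those whose titles name the untreated 6 d condition, and each carried RNA of these cells beside RNA of the same kind of culture kept in fibroblast growth factor 2 (FGF-2), the reference. The cells came from the neocortex of Sprague-Dawley rat embryos at embryonic day 14.5 and had all been expanded as monolayers with FGF-2 at 10 ng/ml. A pair of further groups serve here for comparison, also with 4 arrays each against FGF-2: 12 h without factor, and 6 d in which the AA form of platelet-derived growth factor (PDGF-AA) was added each day to 10 ng/ml. The dyes were swapped on 2 of the 4 arrays of each group. The 4 hybridisations of a group drew on at least 2 RNA preparations, and the labels do not say which arrays share one, so p-values here reflect how much the hybridisations varied, and that variation may be technical only. Primary cultures of this kind are mixed, and in bulk RNA fewer cells of a type and less RNA per cell cannot be told apart.

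FGF-2 keeps neocortical progenitors dividing through the receptor tyrosine kinases of the FGF family and the ERK pathway. When the mitogen is taken away, such cells are known to leave the cell cycle and to become neurons, astrocytes and cells of the oligodendrocyte lineage over days. Astrocytes are known for gap junctions, glutamine synthetase and secreted matrix proteins, oligodendrocyte precursors for the PDGF-AA receptor, and neurons for their own tubulin and microtubule-associated proteins.

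All values are log2 ratios of the 6 d cells without factor over FGF-2, as means of 4 arrays with standard errors from limma, unless another comparison is named. The deposited values were taken as log2 and as sample over reference. Neither is stated, and every fold and every sign rests on this reading, for which the basis was that DNA replication genes lie below 0 after withdrawal of a mitogen. The rat RNA was read on mouse cDNA, so near-identical paralogs can share a signal. The chip carried 2 of 6 chosen progenitor markers, Nes and Vim, and a ratio to FGF-2 does not show whether a marker is present, so the cell type in the labels could not be checked.

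Of 12559 tested genes and unnamed probes, 1723 passed an adjusted p of 0.05 (13.7%), 878 above the reference (6.99%) and 845 below it (6.73%). Among the 6241 genes with 1 symbol, 636 rose (10.2%) and 499 fell (8%). These last shares are the background for every gene list below at 6 d without factor against FGF-2, and the median of all tested units was 0.0043. Where lists are set against another time or treatment, the share over all units is given. That share is a lower background, since 18.2% of genes with 1 symbol passed here against 13.7% of all units. The lists and their members were chosen with earlier results of these data known. A list share above the background may therefore reflect that choice and is no test of the list. Most changes were small: 113 units rose and 48 fell by more than 2-fold, and 11 rose and 2 fell by more than 4-fold. Replicate 4 lay nearest to 0 for 31 of the 40 genes described first below, and over the units that passed its median distance from 0 was 0.325, against 0.527, 0.554 and 0.675 on replicates 1, 2 and 3. Without replicates 1, 2, 3 and 4 in turn, 1012, 1370, 1018 and 1481 units passed.

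Genes with 1 symbol that passed, and whose 4 arrays and features shared a sign, were ranked by their mean. The highest ratios in this ranking belonged to genes of secreted and membrane proteins and of regulators of the cell cycle and of growth factor action. Single features reached higher than the genes below. The highest deposited feature values were 6.41, 6.72, 6.62 and 4.95 on replicates 1 to 4, and these features are not identified here. Clu, which encodes the secreted chaperone clusterin, stood at 4.11, 3.95, 3.09 and 1.74 on replicates 1 to 4. Sirt2, a deacetylase of tubulin that is abundant in oligodendrocytes, stood at 2.80, 3.05, 4.17 and 2.32. Cdkn1c, which encodes the cyclin-dependent kinase inhibitor p57, stood at 2.81, 3.79, 4.15 and 0.71. Every one of these values was above 0, and replicate 4 gave the lowest of each gene, most clearly for Cdkn1c. The means were 3.22 ± 0.36 for Clu (adjusted p = 2.12e-05), 3.09 ± 0.17 for Sirt2 (adjusted p = 1e-08) and 2.87 ± 0.41 for Cdkn1c (adjusted p = 0.000175), or 9.32-fold, 8.49-fold and 7.29-fold.

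Growth factor binding and matrix genes followed. Igfbp5, which binds insulin-like growth factors, rose by 2.70 ± 0.29, with values of 3.35, 3.09, 2.71 and 1.65. Sparc, a matrix glycoprotein that modulates adhesion, rose by 2.27 ± 0.31, and Tnc, the matrix protein tenascin C, by 1.75 ± 0.20. Their arrays again lay highest on replicates 1 to 3. Pdgfa, the gene of the chain that forms PDGF-AA, stood at 1.15, 2.68, 2.48 and 0.96 and rose by 1.82 ± 0.15. Its 2 higher arrays were those with the sample in Cy3 and its 2 lower ones those with it in Cy5, and the dye term takes this part out of the test. At the cell surface, the ecto-ATPase gene Entpd2 rose by 2.17 ± 0.12, Gja1, which encodes the gap junction protein connexin 43, by 1.89 ± 0.17, and the adhesion molecule gene Alcam by 1.68 ± 0.19. Itm2a and Itm2b, which encode related integral membrane proteins, rose by 2.08 ± 0.17 and 1.89 ± 0.25. For Itm2a, replicate 4 was the highest array and replicate 2 the lowest.

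Among enzymes, Gstm1, a glutathione S-transferase, rose by 1.93 ± 0.21, Sat1, which acetylates polyamines for export and breakdown, by 1.92 ± 0.28, and the phospholipid hydrolase gene Abhd3 by 1.90 ± 0.14. The pseudokinase gene Nrbp2 rose by 2.24 ± 0.33, with 2.14, 2.96 and 3.09 on replicates 1 to 3 and 0.77 on replicate 4. Tmcc2, a transmembrane protein gene, rose by 1.96 ± 0.28, Atrn, which encodes the transmembrane protein attractin, by 1.78 ± 0.12, the actin-binding protein gene Shroom2 by 1.70 ± 0.19 and Spsb1, an adaptor of a ubiquitin ligase, by 1.67 ± 0.21. These 20 genes were those with the largest rises among genes whose 4 arrays and whose features shared a sign.

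The lowest ratios in the same ranking belonged to a protease, a protease inhibitor and targets of FGF signalling. Cst3, which encodes the cysteine protease inhibitor cystatin C, stood at -2.63, -2.04, -2.14 and -2.08 and averaged -2.22 ± 0.21 (adjusted p = 4.72e-06). Its arrays on replicates 2 to 4 lay close together and replicate 1 below them. Mmp2, a gelatinase that degrades matrix, stood at -2.10, -1.60, -2.01 and -1.48 and averaged -1.80 ± 0.17. Spry4, a feedback inhibitor that ERK itself induces, stood at -2.82, -2.30, -2.21 and -1.25, with replicate 4 again nearest to 0, and averaged -2.15 ± 0.34 (adjusted p = 0.000393). Etv5, a transcription factor gene switched on by FGF, averaged -1.67 ± 0.15.

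Enzymes among the falls were Cbr3, a carbonyl reductase, at -1.71 ± 0.20, Mvd of the mevalonate pathway at -1.53 ± 0.24, the fatty aldehyde dehydrogenase gene Aldh3a2 at -1.32 ± 0.15 and Mthfd2, a mitochondrial enzyme of folate metabolism, at -1.31 ± 0.19. Mvd had -3.17 on replicate 4, against -1.46, -0.83 and -0.65 on replicates 1 to 3, while Mthfd2 had -0.18 on replicate 4, against -1.68, -1.61 and -1.79. These genes thus departed from the other arrays on replicate 4 in opposite ways. Rrm2, Mcm3, Gmnn, Mcm6, Cdc20, Ube2c and Hmgb2, genes of replication, mitosis and chromatin, were also among the 20 largest falls and are described below. The remaining ones were Ibtk, an inhibitor of a tyrosine kinase, at -1.52 ± 0.20, the cilium gene Cfap20 at -1.51 ± 0.21, the septin gene Septin9 at -1.40 ± 0.13, the calcium-dependent lipid-binding gene Anxa6 at -1.17 ± 0.13 and Antkmt, a mitochondrial lysine methyltransferase gene, at -1.31 ± 0.29, a call lost when the 6 d arrays alone were fitted.

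**Figure D1:**
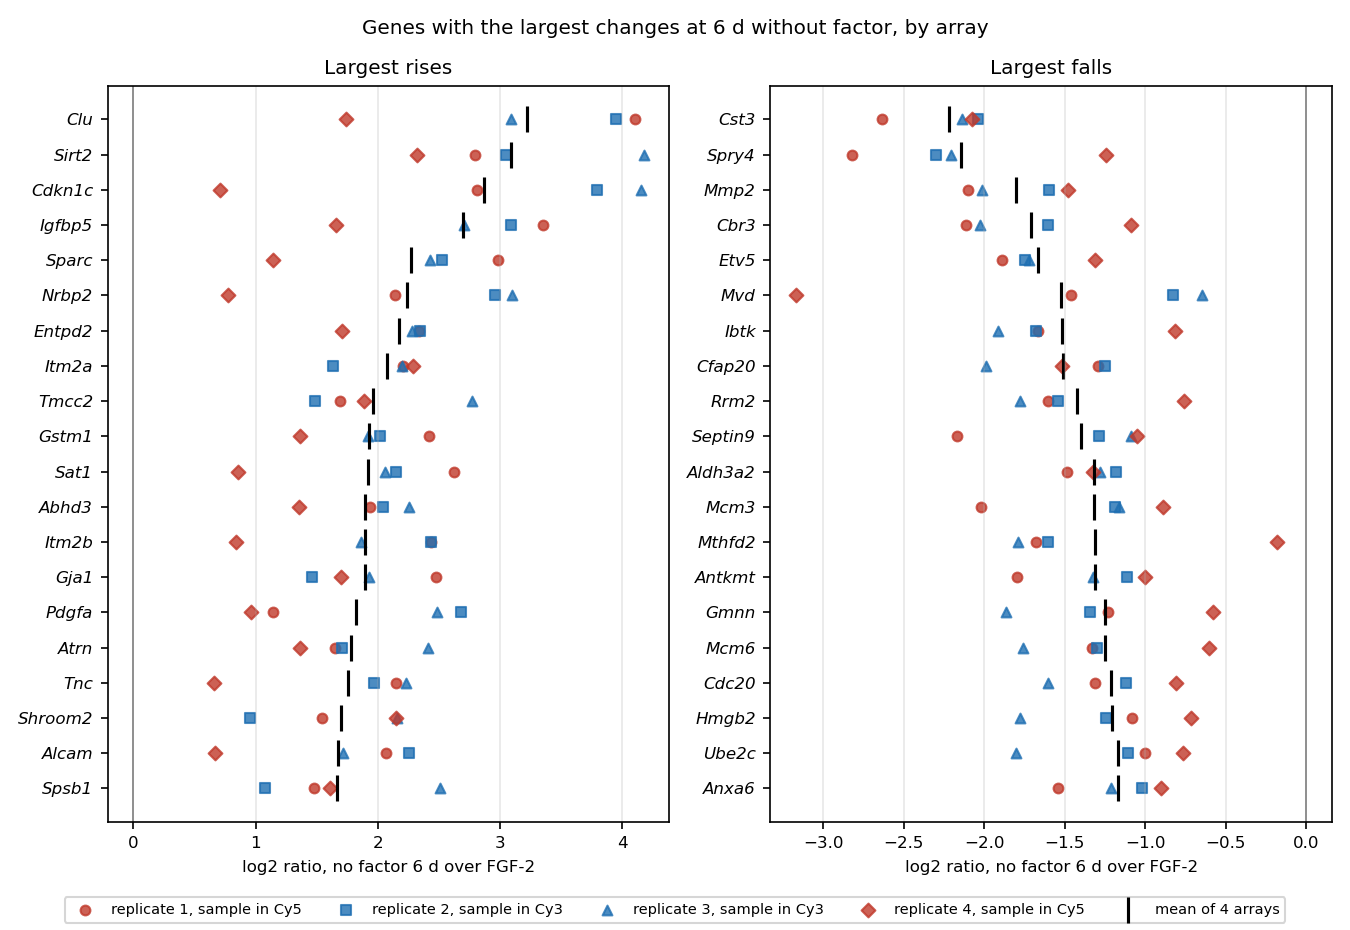
Log2 ratios of no factor 6 d over FGF-2 on each of the 4 arrays for the 20 genes with the largest rises (left) and the 20 with the largest falls (right). Symbols mark the replicate, colours the dye of the sample RNA and black bars the mean, and replicate 4 is the point nearest to 0 for 31 of the 40 genes.

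**Figure D2:**
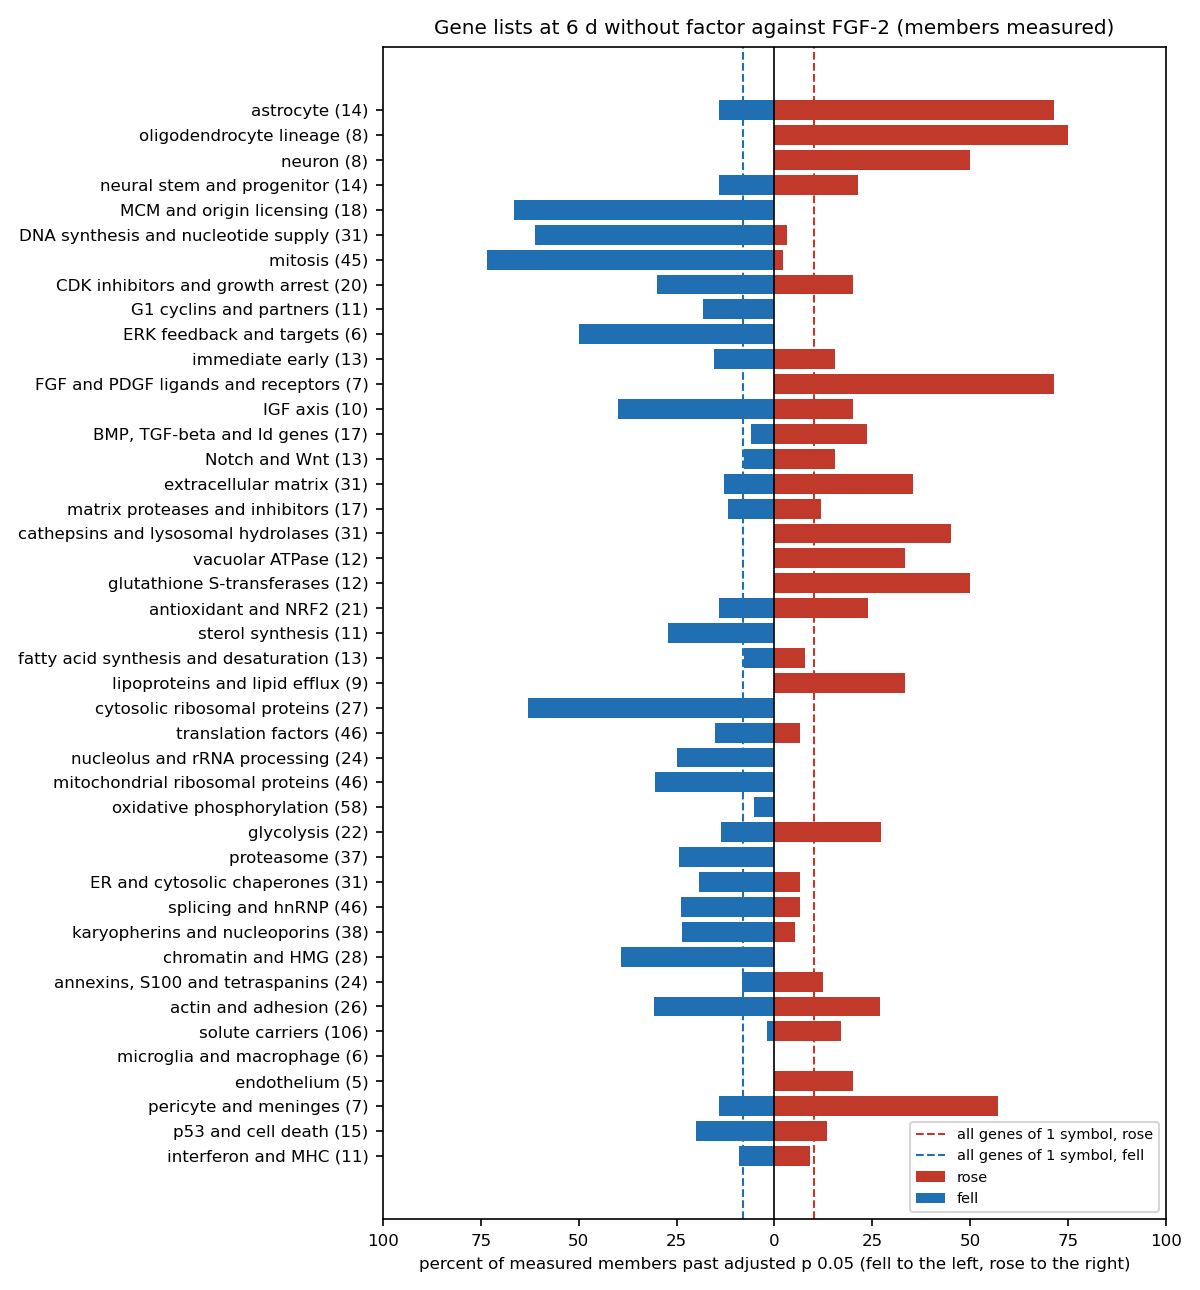
Percent of the measured members of each gene list that rose (right, red) or fell (left, blue) at 6 d without factor against FGF-2, past an adjusted p of 0.05, with the number of measured members in parentheses. Dashed lines mark the shares over all genes with 1 symbol, 10.2% for rises and 8% for falls.

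Genes of astrocytes were mostly above the reference. Of 14 measured members 10 rose and 2 fell, with a median of 0.76, and beside Clu, Entpd2 and Gja1 these included Glul, which encodes glutamine synthetase, at 0.71 ± 0.18, the transcriptional regulator gene Id3 at 0.88 ± 0.20 and Mt2 and Mt1, which encode metal-binding metallothioneins, at 0.80 ± 0.12 and 0.67 ± 0.12. The glycolytic enzyme gene Aldoc rose by 0.89 ± 0.23 and Atp1b2, a subunit of the sodium pump, by 0.94 ± 0.29. Their values were 1.07, 0.97, 1.68 and -0.17 for Aldoc and 1.40, 1.31, 1.14 and -0.10 for Atp1b2. Replicate 4 had the opposite sign for both, and both calls were lost without replicate 1 or replicate 3, and that of Atp1b2 also without replicate 2. The Id3 call was lost without replicate 2. The members that fell were Cst3 and Sparcl1, a secreted relative of Sparc, at -0.66 ± 0.19, which no longer passed without replicate 2, 3 or 4. The glutamate transporter gene Slc1a3, a defining astrocyte marker, was at -0.07 ± 0.13, so that 3 of the 4 such markers on the chip rose. Over the arrays the list median was 0.99, 0.65, 0.99 and 0.23.

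In the oligodendrocyte lineage 6 of 8 measured genes rose and 0 fell, with a median of 0.87. Beside Sirt2, the kinase gene Sgk1 rose by 1.39 ± 0.22, and the tetraspanin genes Cd81 and Cd9 rose by 0.98 ± 0.16 and 0.77 ± 0.14. Qdpr, an enzyme that recycles tetrahydrobiopterin, rose by 0.35 ± 0.10, a call lost without replicate 1, 3 or 4. Pdgfra, which encodes the PDGF-AA receptor and was the only 1 of 10 defining markers of this lineage on the chip, stood at 2.07, 2.63 and 1.94 on replicates 1 to 3 and at -0.60 on replicate 4. Its mean was 1.51 ± 0.36 (adjusted p = 0.00912), and the call was lost without replicate 1 or replicate 2. The genes that rose are active in other cells as well, and the lineage is read here through few genes.

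Of 8 measured neuron genes 4 rose and 0 fell, with a median of 0.38. Mapt, which encodes the microtubule-associated protein tau, stood at 0.83, 1.80, 1.64 and 0.49 and rose by 1.19 ± 0.15. Its lower arrays, replicates 1 and 4, were those with the sample in Cy5, and its dye effect, Cy5 minus Cy3, was -0.87 ± 0.15. Dpysl2, a mediator of axon growth, rose by 0.71 ± 0.10, the neuronal tubulin gene Tubb3 by 0.45 ± 0.10 and Stmn1, a microtubule destabiliser also used in mitosis, by 0.42 ± 0.09. All 4 arrays of these genes were above 0. The neurofilament gene Nefl was at -0.02, the growth cone gene Gap43 at 0.10 and the ubiquitin hydrolase gene Uchl1 at -0.06, and none of them passed.

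Progenitor genes did not move one way. Of 14 measured, 3 rose and 2 fell, with a median of 0.001. Nes, which encodes the intermediate filament nestin, stood at -1.27, -0.68, -0.28 and -1.32 and averaged -0.89 ± 0.12 (adjusted p = 0.000143). Its lower arrays, replicates 1 and 4, were those with the sample in Cy5. The dye effect in the model, Cy5 minus Cy3, was -0.95 ± 0.12 for Nes. The BMP target gene Id1 averaged -0.82 ± 0.18, with all arrays between -1.05 and -0.69. Those that rose were Tnc, the FGF receptor gene Fgfr2 at 0.79 ± 0.12 and the orphan nuclear receptor gene Nr2e1 at 0.50 ± 0.12, a call lost without replicate 1 or replicate 3. Vim, which encodes vimentin, was at -0.32 ± 0.13 and did not pass (adjusted p = 0.137).

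**Figure D3:**
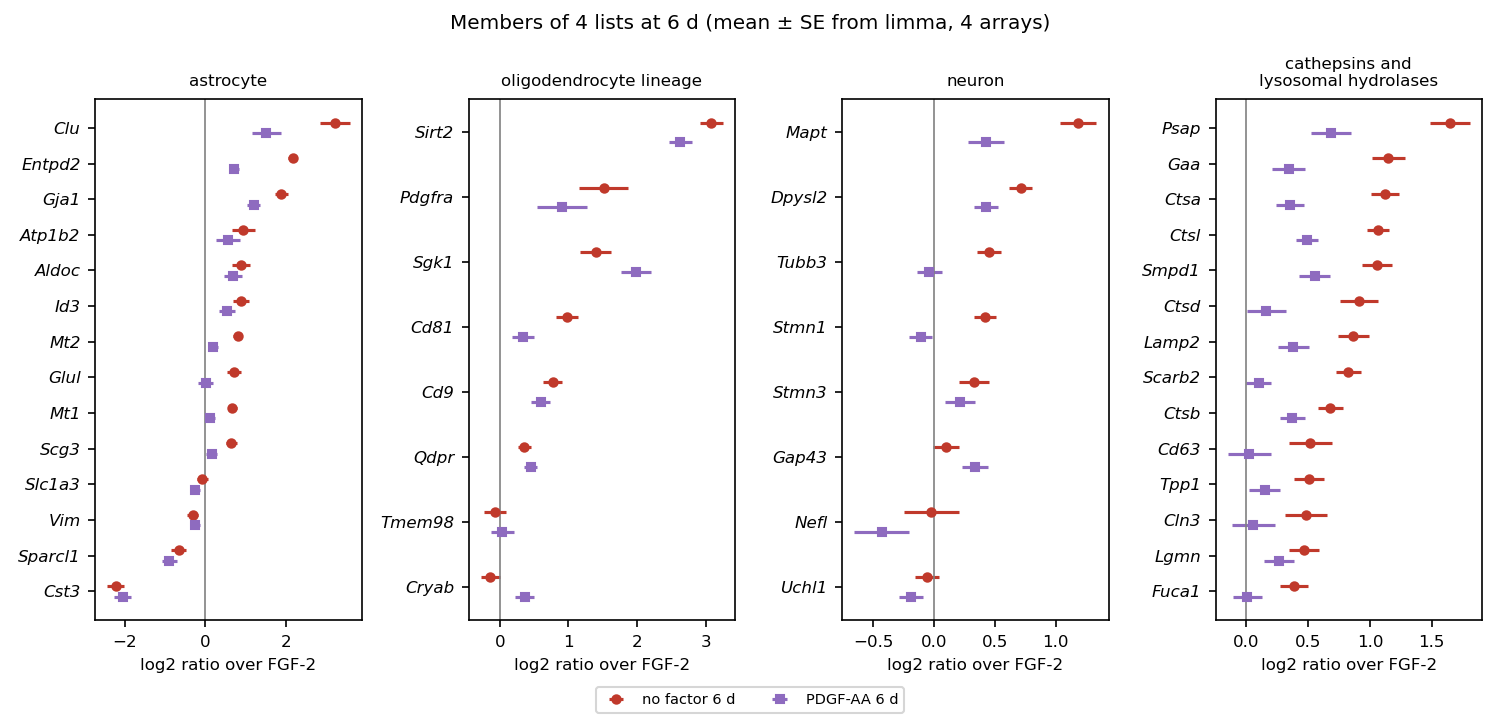
Mean log2 ratios over FGF-2 with standard errors for genes of 4 lists at 6 d without factor (red circles) and at 6 d with PDGF-AA (violet squares), 4 arrays each. The lysosomal panel shows the 14 of 31 genes farthest from 0. Entpd2, at 2.17 without factor and 0.72 with PDGF-AA, is the gene whose difference between the treatments passed, a call lost without the dye term or with only the 6 d arrays fitted.

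Most measured genes of DNA replication and mitosis were below FGF-2, and since this fall was the basis for the direction of the ratios, its sign is not an independent result. Of 18 genes of the MCM helicase and of origin licensing, 12 fell and 0 rose, with a median of -0.49. Mcm3, a subunit of the replicative helicase, stood at -2.02, -1.19, -1.17 and -0.89. Gmnn, which encodes the licensing inhibitor geminin, stood at -1.23, -1.34, -1.86 and -0.58. Their means were -1.32 ± 0.21 and -1.25 ± 0.17. Other helicase subunits followed, Mcm6 at -1.25 ± 0.23, Mcm2 at -1.06 ± 0.18 and Mcm7 at -1.04 ± 0.09, and the licensing factor gene Cdt1 was at -0.84 ± 0.19. Mcm5 was at -0.86 ± 0.22, a call lost without replicate 1, 2 or 3 and without the dye term. The Cdt1 call was lost without replicate 4. Of the origin recognition genes Orc5 averaged -0.37 ± 0.10, while Orc1, Orc2, Orc4 and Orc6 were at -0.09, 0.03, 0.20 and -0.38 and did not pass. The count of this list was 7 without replicate 1 and 7 without replicate 3.

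In DNA synthesis and nucleotide supply 19 of 31 fell and 1 rose, with a median of -0.54. Rrm2, the regulatory subunit of ribonucleotide reductase, averaged -1.42 ± 0.22, with replicates 1 to 4 at -1.61, -1.54, -1.78 and -0.76. Top2a, a topoisomerase that untangles replicated DNA, averaged -1.07 ± 0.18, the thymidine kinase gene Tk1 -1.04 ± 0.20, the clamp loader gene Rfc3 -0.95 ± 0.12 and Uhrf1, which guides maintenance of DNA methylation, -0.86 ± 0.18. The gene that rose was Pole3, a histone-fold subunit of DNA polymerase epsilon, at 0.33 ± 0.10, and it no longer passed without replicate 1, 3 or 4. Without replicates 1 and 3, 10 and 12 genes of this list fell.

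Of 45 mitosis genes 33 fell and 1 rose, with a median of -0.71. Without replicates 1 to 4 in turn, 25, 27, 24 and 33 of them fell. Cdc20, an activator of the anaphase-promoting complex, stood at -1.31, -1.12, -1.60 and -0.81, and Ube2c, the ubiquitin-conjugating enzyme of that complex, at -1.0, -1.11, -1.81 and -0.77. Both were below 0 on every array, replicate 3 lowest and replicate 4 nearest to 0, and averaged -1.21 ± 0.17 and -1.17 ± 0.15. The cyclin genes Ccna2 and Ccnb2 averaged -1.14 ± 0.18 and -1.02 ± 0.17, the checkpoint kinase gene Bub1 -1.07 ± 0.17, the securin gene Pttg1 -1.07 ± 0.14 and the spindle gene Tacc3 -1.03 ± 0.17. The member that rose was Stmn1. The proliferation marker gene Mki67 was at -0.22 ± 0.18 and did not pass (adjusted p = 0.585).

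Promoters of these genes were searched for the letters of known cell cycle elements, to show what sequence lies upstream of the members that fell. RefSeq promoter sequences of build GRCr8 were matched by symbol for 55 of the 64 genes that fell in these 3 lists, and the 250 bases before the start were searched on both strands. The cell cycle homology region, in the form TTTGAA or in the rarer form TTCGAA, was present in 19 of 28 promoters of mitosis genes that fell (67.9%), against 12.2% of 5013 promoters of tested genes and 17.3% of all 27457 promoters. CCAAT, the letters bound by NF-Y, was present in 22 of those 28 (78.6%), against 35.9% and 34.3%. In the licensing list the homology region was present in 3 of 10 promoters (30%) and CCAAT in 6 (60%). In the DNA synthesis list they were present in 4 of 17 (23.5%) and 10 of 17 (58.8%). The E2F letters, TTTGGCGC in one form and TTTCGCGC in the other, were present in 4 of 10 promoters of the licensing list (40%), those of Mcm2, Mcm5, Mcm6 and Mcm7, in 0 of 17 of the DNA synthesis list and in 1 of 28 of the mitosis list, against 1.52% and 0.67%. A match is a description of the letters and not evidence of binding. Absence speaks only for this window and for these exact letters, and other spellings of the same elements, such as those of E2F, were not searched. List members that did not fall were not counted separately, so these shares do not tie the letters to the fall.

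The promoters shown are those of Mcm3 (chr9:30733747-30733996, minus strand) and Gmnn (chr17:40729584-40729833, plus strand), the members of the 3 lists with the largest falls that could be matched; Cdc20 (chr5:137255800-137256049, minus strand) and Pttg1 (chr10:28406327-28406576, minus strand), the mitosis genes with the largest falls that hold both TTTGAA and CCAAT, chosen after the counts were seen; and, as genes that rose, Sat1 (chrX:44007839-44008088, plus strand) and Klf9 (chr1:230126396-230126645, plus strand). Klf9 encodes a transcription factor of differentiating cells and rose by 0.30 ± 0.09, a call that did not hold when any 1 array was left out. Capitals mark these motifs on either strand, and each sequence ends at the base before the start.
Mcm3: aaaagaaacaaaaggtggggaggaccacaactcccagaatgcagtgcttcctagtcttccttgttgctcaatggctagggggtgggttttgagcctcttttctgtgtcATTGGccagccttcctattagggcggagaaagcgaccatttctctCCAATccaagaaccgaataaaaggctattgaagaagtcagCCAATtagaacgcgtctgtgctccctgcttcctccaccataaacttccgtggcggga
Gmnn: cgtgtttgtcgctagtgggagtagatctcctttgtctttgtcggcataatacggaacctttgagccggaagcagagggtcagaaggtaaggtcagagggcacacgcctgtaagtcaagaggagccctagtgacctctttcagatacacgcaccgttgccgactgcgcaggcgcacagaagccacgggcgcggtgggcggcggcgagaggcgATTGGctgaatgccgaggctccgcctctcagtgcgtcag
Cdc20: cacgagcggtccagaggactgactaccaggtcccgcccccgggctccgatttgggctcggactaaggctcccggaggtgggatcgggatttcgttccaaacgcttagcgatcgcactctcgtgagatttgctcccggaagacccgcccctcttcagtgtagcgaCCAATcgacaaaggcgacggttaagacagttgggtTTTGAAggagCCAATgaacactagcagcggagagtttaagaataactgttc
Pttg1: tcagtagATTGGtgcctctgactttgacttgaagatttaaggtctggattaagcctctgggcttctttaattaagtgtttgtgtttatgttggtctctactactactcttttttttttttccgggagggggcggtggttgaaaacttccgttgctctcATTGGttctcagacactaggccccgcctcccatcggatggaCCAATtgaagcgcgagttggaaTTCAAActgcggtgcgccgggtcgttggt
Sat1: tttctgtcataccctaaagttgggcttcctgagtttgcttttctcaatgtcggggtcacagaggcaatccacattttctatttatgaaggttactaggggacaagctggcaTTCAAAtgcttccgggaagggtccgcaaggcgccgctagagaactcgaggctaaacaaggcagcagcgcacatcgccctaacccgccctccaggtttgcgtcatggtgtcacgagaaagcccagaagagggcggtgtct
Klf9: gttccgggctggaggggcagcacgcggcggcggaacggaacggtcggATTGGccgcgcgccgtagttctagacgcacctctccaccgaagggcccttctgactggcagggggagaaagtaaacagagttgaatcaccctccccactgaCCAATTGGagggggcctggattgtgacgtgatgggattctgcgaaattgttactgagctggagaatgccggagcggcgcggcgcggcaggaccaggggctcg
In Cdc20 TTTGAA begins 51 bases before the start and lies between copies of CCAAT that begin at 86 and 41. In Pttg1 TTTGAA lies on the other strand, 29 bases before the start, with CCAAT at 51 and on the other strand at 92 and 243. Mcm3 holds CCAAT 3 times and Gmnn 1 time, without either form of the homology region. Sat1, which rose, holds TTTGAA on the other strand, 139 bases before the start. In Klf9 the run CCAATTGG holds CCAAT on both strands in overlap.

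Inhibitors of the cell cycle and arrest genes moved both ways, 4 of 20 rising and 6 falling, with a median of 0.13. Cdkn1c and Sat1 rose, as did Ndrg1, a stress and differentiation gene, at 0.76 ± 0.16. Cdkn3, a phosphatase of cyclin-dependent kinases, averaged -1.12 ± 0.15, Gas1, a membrane protein first found in arrested fibroblasts, -0.98 ± 0.17, the zinc finger gene Klf6 -0.85 ± 0.13 and Cdkn2c, of the INK4 family, -0.64 ± 0.16. The Cdkn2c call was lost without replicate 1 or replicate 3, and without either array 3 genes of the list fell. Cdkn1b, another inhibitor, was at 0.29 and did not pass. Of 11 G1 cyclins and partners, Ccne1, the cyclin E1 gene, averaged -0.79 ± 0.16 and E2f5 -0.38 ± 0.12, a call lost when any 1 array was left out, and the other 9 did not pass.

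Of 6 measured FGF and ERK feedback genes 3 fell and 0 rose: Spry4, Etv5 and Spred2, an inhibitor of ERK activation, at -0.85 ± 0.11. The arrays of these 3 were all below 0. The phosphatase gene Dusp7, the FGF receptor antagonist gene Il17rd and the stress-inducible gene Ier3 were at 0.11, -0.02 and -0.17 and did not pass. Immediate early genes differed among themselves. Jun, an AP-1 subunit, stood at 0.98, 1.69, 1.59 and 0.81 and rose by 1.27 ± 0.13 (adjusted p = 8.13e-06), while Egr1, a zinc finger gene induced by ERK, stood at -1.02, -1.11, -1.36 and -0.34 and averaged -0.96 ± 0.23, a call lost without replicate 1 or replicate 3. Fos was at 0.35 and did not pass, and 2 of 13 genes rose and 2 fell in all, with 1 rise without replicate 1 and 1 fall without replicate 1 or 3.

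Of 7 FGF and PDGF ligands and receptors 5 rose and 0 fell, with a median of 0.79. Beside Pdgfa, Pdgfra and Fgfr2, Pdgfrb, which encodes the receptor for PDGF-BB, stood at 1.50, 1.22, 1.41 and 0.92 and rose by 1.26 ± 0.15. The ligand gene Pdgfc rose by 0.58 ± 0.16, a call lost without replicate 1, 2 or 3. Fgfr1 was at -0.66 ± 0.34 and did not pass. The remaining member, Fgfr1op2, encodes a partner of the receptor gene in a fusion and was at -0.08. The list had 3 rises without replicate 1 or replicate 2.

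In the insulin-like growth factor axis, 2 of 10 rose and 4 fell, and 2 fell without replicate 1, 3 or 4. Igf2, the ligand gene, stood at 1.50, 1.92, 0.88 and 1.23 and rose by 1.38 ± 0.20, as Igfbp5 did. The binding protein genes Igfbp4 and Igfbp3 averaged -0.91 ± 0.15 and -0.83 ± 0.20, so that 3 binding proteins of one family changed in opposite directions. The Igfbp3 call was lost without replicate 1. The RNA-binding protein genes Igf2bp1 and Igf2bp3 averaged -0.37 and -0.36. Of 17 genes of BMP, TGF-beta and Id signalling 4 rose and 1 fell: the ligand gene Tgfb2 rose by 0.92 ± 0.19, Id3 by 0.88, the procollagen proteinase gene Bmp1 by 0.64 ± 0.12 and the receptor gene Tgfbr2 by 0.50 ± 0.13, while Id1 fell. Of 13 genes on the Notch and Wnt list 2 rose, the Wnt inhibitor gene Dkk3 by 0.85 ± 0.21 and Rbpj, the DNA-binding partner of Notch, by 0.66 ± 0.11. Tcf3 on this list averaged -0.40 ± 0.10. In mouse this symbol names an E protein gene, so its fall is not that of a Wnt effector. The calls of Tgfbr2 and Dkk3 were lost without replicate 1 or replicate 3, that of Tgfbr2 also without replicate 2, and that of Tcf3 without replicate 3.

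Extracellular matrix genes were more often above the reference than below. Of 31 measured 11 rose and 4 fell, with a median of 0.21, and without replicates 2, 3 and 4 in turn 1, 1 and 2 fell. With Sparc and Tnc, the proteoglycan genes Vcan and Bgn rose by 0.82 ± 0.16 and 0.68 ± 0.13, the syndecan genes Sdc4 and Sdc2 by 0.83 ± 0.14 and 0.77 ± 0.12, and the collagen-binding proteoglycan gene Dcn by 0.60 ± 0.12. The basement membrane genes Nid1 and Nid2 went apart, at -0.65 ± 0.10 and 0.60 ± 0.13. The fibrillar collagen gene Col3a1 averaged 1.17 ± 0.13, but its features disagreed in sign. Of 17 matrix proteases and inhibitors 2 rose and 2 fell. Timp3, an inhibitor of metalloproteinases, rose by 1.20 ± 0.18 and Adamts4, which cleaves proteoglycans, by 1.00 ± 0.15, whereas Mmp2 and Cst3 fell.

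The lysosomal genes that passed all lay above the reference. Of 31 genes of cathepsins and lysosomal hydrolases 14 rose and 0 fell, with a median of 0.34. Psap, the precursor of the saposins that help degrade sphingolipids, stood at 1.90, 1.61, 1.84 and 1.22 and rose by 1.65 ± 0.16 (adjusted p = 6.71e-06). Ctsl, the cathepsin L gene, stood at 1.06, 0.92, 1.10 and 1.18 and rose by 1.07 ± 0.09, with the arrays close together. The acid glucosidase gene Gaa rose by 1.15 ± 0.13, Ctsa, a protease that protects other hydrolases, by 1.12 ± 0.11, the acid sphingomyelinase gene Smpd1 by 1.05 ± 0.12, the aspartic protease gene Ctsd by 0.91 ± 0.16, and the membrane protein genes Lamp2 and Scarb2 by 0.87 ± 0.13 and 0.82 ± 0.10. Without replicate 3 the count of rises was 9. Of 12 subunits of the vacuolar ATPase, which acidifies lysosomes, 4 rose, the accessory subunit gene Atp6ap1 by 0.86 ± 0.12 and Atp6v0d1 by 0.54 ± 0.09, and 2 rose without replicate 1, 3 or 4. Another of the 4, Atp6v1a at 0.28, had features that disagreed in sign.

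Detoxification genes rose within 1 family. Of 12 glutathione S-transferases 6 rose, and these were all 6 measured members of the Gstm class, whose sequences are alike enough that the chip may not separate them. Gstm1 stood at 2.42, 2.02, 1.92 and 1.37, Gstm2 averaged 1.25 ± 0.14, Gstm7 1.11 ± 0.15 and Gstm4 1.05 ± 0.19. The other 6 genes on the list, among them Gsta4 at 0.54 and Mgst3 at -0.17, did not pass. Antioxidant genes went both ways, 5 of 21 rising and 3 falling. The ferritin light chain gene Ftl1 rose by 0.89 ± 0.10 and the catalase gene Cat by 0.54 ± 0.08, while the peroxiredoxin genes Prdx4 and Prdx3 averaged -0.76 ± 0.11 and -0.75 ± 0.10 and the glutathione peroxidase gene Gpx1 -0.63 ± 0.10.

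Of 11 sterol synthesis genes 10 were below 0, and 3 fell and 0 rose: Mvd, the sterol sensor gene Insig1 at -0.74 ± 0.14 and the lanosterol synthase gene Lss at -0.50 ± 0.14, a call lost without replicate 1 or 2. Insig1 was at 0.10 on replicate 4 and between -1.29 and -0.67 on the others. Of 13 fatty acid genes, the binding protein gene Fabp3 averaged -0.75 ± 0.14 and the desaturase gene Scd2 rose by 0.48 ± 0.09. Of 9 lipoprotein and lipid efflux genes 3 rose, Clu among them, and 1 did without replicate 1, 2 or 3.

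Cytosolic ribosomal protein genes fell by small amounts, while most genes of the other lists of protein synthesis did not pass. Of 27 cytosolic ribosomal protein genes 17 fell and 0 rose, with a median of -0.32 and all members between -0.90 and -0.08. Rps20, of the small subunit, stood at -0.43, -0.44, -0.67 and -0.53 and averaged -0.52 ± 0.08. The largest fall was that of Rps27l, a p53-responsive paralog, at -0.90 ± 0.12, with Rpl9 at -0.59 ± 0.13 and Rpl28 at -0.59 ± 0.12, both calls lost without the dye term. Without replicate 3 or replicate 4 the list had 11 falls. Of 46 mitochondrial ribosomal proteins 14 fell and 0 rose, with a median of -0.18, among them Mrpl18 at -0.48 ± 0.10 and Mrpl21 at -0.43 ± 0.09. That count was 4 without replicate 1 and 5 without replicate 3. Of 46 translation factors 7 fell, the elongation factor gene Eef1b2 at -0.67 ± 0.09 the most, and 3 rose, the helicase gene Eif4a2 by 0.65 ± 0.13, and 4 fell without replicate 1 or 3. Of 24 nucleolar genes 6 fell, with Nhp2, part of snoRNA particles, at -0.77 ± 0.12 and Npm1, which encodes nucleophosmin, at -0.51 ± 0.11.

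Respiratory chain genes stayed near the reference, 3 of 58 falling (median -0.05), 1 without replicate 1 and 0 without replicate 3. Glycolytic genes moved both ways. The glucose transporter gene Slc2a1 rose by 0.68 ± 0.09 and the phosphofructokinase gene Pfkl by 0.62 ± 0.10, while the lower-pathway genes Pgk1, Pgam1 and Pkm averaged -0.73 ± 0.10, -0.49 ± 0.11 and -0.43 ± 0.09. The Pkm arrays lay between -0.48 and -0.40. In the whole list 6 of 22 rose and 3 fell. The list also holds genes that are not of glycolysis itself, such as Adm, Bnip3 and Ndrg1. Bnip3 and Ndrg1 are among the genes counted as rising. The Pfkl call was lost without the dye term.

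Some genes of protein turnover and of the nucleus fell by smaller amounts. Of 37 proteasome genes 9 fell and 0 rose, with a median of -0.15, for example the assembly chaperone gene Psmg3 at -0.45 ± 0.09, and 4 fell without replicate 1 or replicate 3. Of 31 chaperones 6 fell, among them the mitochondrial co-chaperonin gene Hspe1 at -0.56 ± 0.09, and 2 rose, the lectin chaperone gene Canx by 0.40 ± 0.08, with 3 falls without replicate 3 and 1 rise whichever array was left out. Of 46 splicing genes 11 fell and 3 rose. Ptbp1, a splicing repressor that holds back neuronal exons, averaged -0.80 ± 0.15, while Srsf5 rose by 0.48 ± 0.09. The count of falls was 2 without replicate 1 or replicate 3.

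Of 38 karyopherins and nucleoporins 9 fell and 2 rose, with 5 falls without replicate 1, and 0 rises without replicate 2 or 3. Kpna2, an importin alpha that is abundant in dividing cells, averaged -0.93 ± 0.18, and Nup93 of the inner pore ring -0.57 ± 0.11. Of 28 chromatin genes 11 fell and 0 rose, with a median of -0.28. Hmgb2, a DNA-bending protein, averaged -1.21 ± 0.23, the histone methyltransferase gene Ezh2 -0.62 ± 0.11 and the histone chaperone gene Anp32a -0.55 ± 0.11. Between 4 and 6 chromatin genes fell when any 1 array was left out, 4 of them without replicate 3.

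Membrane transport and cytoskeleton gave named changes of about 2-fold. Of 106 solute carriers 18 rose and 2 fell, with a median of 0.07, and 0 fell without replicate 3. The creatine transporter gene Slc6a8 stood at 1.04, 1.33, 1.58 and 1.17 and rose by 1.28 ± 0.10 (adjusted p = 4.23e-07). Slc22a17, a receptor for lipocalin 2, rose by 1.25 ± 0.18, the choline transporter-like genes Slc44a2 and Slc44a1 by 0.93 ± 0.17 and 0.85 ± 0.11, and the urea transporter gene Slc14a1 by 0.86 ± 0.17. Of 26 actin and adhesion genes 7 rose and 8 fell, with 4 rises without replicate 1 or 3. The cadherin gene Cdh11 rose by 1.23 ± 0.13 with Alcam. The 4 measured tropomyosin genes fell, Tpm2 by 0.97 and Tpm1 by 0.91 on the log2 scale, and their sequences are alike enough to share signal. The membrane linker gene Rdx averaged -0.89 ± 0.20, with 0.04 on replicate 4 and -1.30 to -1.08 on the others, a call lost without replicate 1. The integrin gene Itga6 averaged -0.76 ± 0.13, a call lost without the dye term.

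Markers of cells outside the neural lineages were looked at on the same arrays. Of 6 microglia and macrophage genes 0 passed (range -0.21 to 0.21), and none of 5 defining markers was among the tested symbols. Of 5 endothelial genes Mcam rose by 1.59 ± 0.17, while the defining markers Pecam1 and Cdh5 were at 0.04 and 0.10 and did not pass. Mcam encodes an adhesion molecule found also on pericytes. Of 7 pericyte and meningeal genes 4 rose and 1 fell, with a median of 0.60 and medians of 0.91, 0.60, 0.88 and 0.46 on replicates 1 to 4. Those that rose were Igf2, Pdgfrb, Dcn and Col3a1, and Igfbp4 fell. These genes moved with the matrix genes above, and their part in the matrix result was not tested. Of 15 p53 and cell death genes 2 rose and 3 fell, with the translation inhibitor gene Pdcd4 at 1.17 ± 0.21, and without replicates 1 to 4 in turn 0, 0, 0 and 1 fell. Of 11 interferon and MHC genes 1 rose and 1 fell, and neither call held without replicate 1 or 3.

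The difference between 6 d and 12 h without factor was tested within the same fit, where the common reference cancels if it was the same RNA. It passed in 235 units (1.87%), 178 higher at 6 d (1.42%) and 57 lower (0.454%), and the arrays of both times did not overlap in 6.09% of all units. The fewest units, 111, passed without replicate 1 at 12 h, 112 did without replicate 3 of either time, and the other single arrays left 125 to 171. Sirt2 had 2.80, 3.05, 4.17 and 2.32 at 6 d, against 1.41, -0.10, 0.48 and 0.88 at 12 h. Entpd2 had 2.34, 2.35, 2.28 and 1.71 at 6 d, against 0.72, 0.15, -0.30 and 0.79 at 12 h. Epb41l2, which links the membrane to the actin cytoskeleton, had 1.30, 1.23, 1.39 and 1.23 at 6 d, against -0.75, -0.12, -0.46 and -0.83 at 12 h. None of these genes overlapped between the times. Their differences, 6 d minus 12 h, were 2.42 ± 0.24, 1.83 ± 0.17 and 1.83 ± 0.17 (adjusted p = 5.62e-05, 3.76e-05 and 4.03e-05).

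The other genes with the largest higher values at 6 d were Clu (2.46 ± 0.51), Itm2a (1.90 ± 0.24), Mcam (1.87 ± 0.24), the homeobox gene Pbx3 (1.75 ± 0.19), Tmcc2 (1.72 ± 0.39), Shroom2 (1.65 ± 0.27) and the semaphorin gene Sema6d (1.58 ± 0.19). The calls of Clu and Tmcc2 were lost when single arrays were left out, that of Clu without replicate 1 or 2 at 6 d or replicate 1 or 4 at 12 h, and that of Tmcc2 without replicate 1, 3 or 4 at 6 d or any array at 12 h. Lower at 6 d were Mmp2 (-1.79 ± 0.25) and Cst3 (-1.68 ± 0.30). Mmp2 had -2.10, -1.60, -2.01 and -1.48 at 6 d, against 0.06, -0.11, -0.05 and 0.07 at 12 h, when it lay at the reference. Smoc1, a matrix-associated calcium-binding protein gene, had -0.54, -0.77, -1.26 and -1.39 at 6 d, against 0.39, 0.87, 0.77 and 0.19 at 12 h, a difference of -1.54 ± 0.22. It thus stood on opposite sides of the reference at the 2 times.

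The growth arrest gene Gadd45g had 0.29, 0.82, 0.67 and -1.18 at 6 d, against 2.37, 1.38, 1.15 and 2.26 at 12 h, a difference of -1.64 ± 0.35 (adjusted p = 0.0226). Coro2b, an actin-binding gene, differed by -1.04 ± 0.15 and Septin9 by -1.09 ± 0.19. The cysteine dioxygenase gene Cdo1, the glutaredoxin gene Glrx, the snRNA transcription factor subunit gene Snapc2 and the transcription cofactor gene Vgll4 differed by -1.34 ± 0.32, -1.14 ± 0.23, -1.21 ± 0.22 and -1.0 ± 0.20. The calls of Gadd45g and Cdo1 were lost without replicate 2, 3 or 4 at 6 d or any array at 12 h, and those of Glrx and Vgll4 without replicate 3 at 6 d or replicate 1 or 3 at 12 h. Snapc2 was lost without the dye term.

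**Figure D4:**
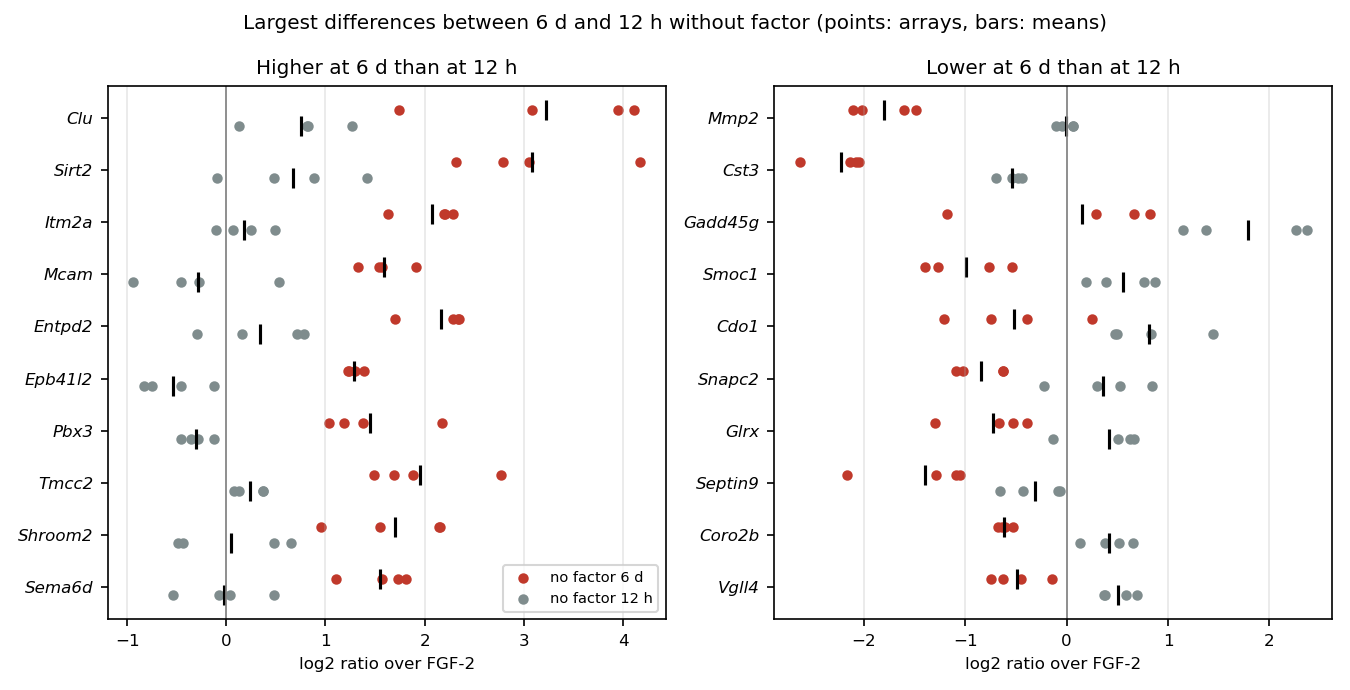
Log2 ratios over FGF-2 on each array at 6 d (red) and 12 h (grey) without factor, for the 10 genes with the largest higher (left) and lower (right) values at 6 d, with black bars at the means. The arrays of both times do not overlap for any of the genes shown, which were chosen for large differences between these same arrays. Over all units 6.09% do not overlap. Some of the calls shown were lost when single arrays were left out, as the text gives.

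Cell cycle genes lay nearer to the reference at 6 d than at 12 h where the difference passed. In the DNA synthesis list 7 of 31 were higher at 6 d and 0 lower, in mitosis 4 of 45 and 0, and in licensing 1 of 18 and 0, beside 1.42% higher and 0.454% lower over all units. Among the 6241 genes with 1 symbol, 127 were higher and 42 lower. The list medians were -0.54 at 6 d and -1.04 at 12 h for DNA synthesis, -0.71 at 6 d and -1.22 at 12 h for mitosis, and -0.49 at 6 d and -0.78 at 12 h for licensing. Top2a had -1.02, -1.18, -1.47 and -0.60 at 6 d, against -3.24, -1.77, -2.16 and -2.78 at 12 h, a difference of 1.42 ± 0.26 (adjusted p = 0.00764), a call lost without the dye term or with arrays scaled to a common spread. The DNA ligase gene Lig1 differed by 1.09 (adjusted p = 0.00831). Mcm6 differed by 1.34 ± 0.32 (adjusted p = 0.0402), a call lost without replicate 2, 3 or 4 at 6 d or any array at 12 h. Of the other named ones, Dctpp1, a nucleotide pyrophosphatase gene, and Ccne1 lost their calls without the same arrays, as did Rrm2, and Cdkn2c did whichever 6 d array was left out.

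**Figure D5:**
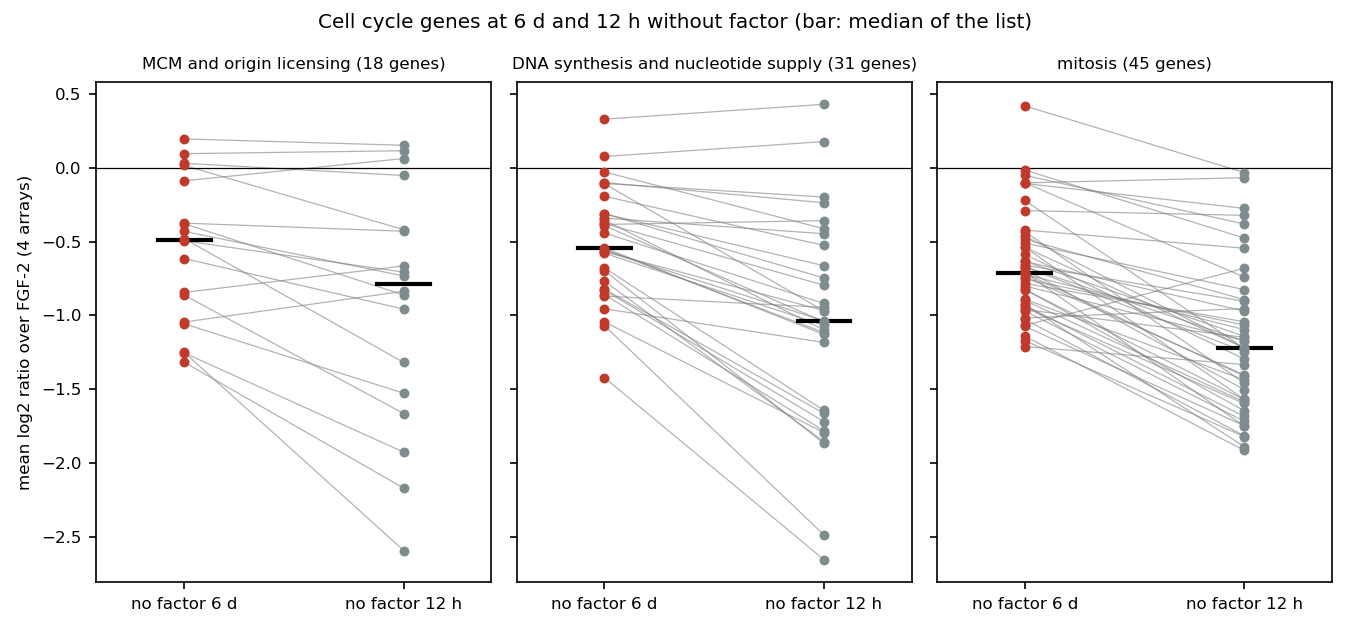
Mean log2 ratios over FGF-2 of the measured genes of 3 cell cycle lists at 6 d (red) and 12 h (grey) without factor, with a line for each gene and a black bar at the list median. The medians at 6 d are -0.49, -0.54 and -0.71, and at 12 h they are -0.78, -1.04 and -1.22, in the order of the panels.

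Other groups also differed between the times gene by gene. Igf2 differed by 1.50 ± 0.29, Gja1 by 1.56 ± 0.23, Slc6a8 by 1.17 ± 0.13 and Jun by 1.06 ± 0.18. Of 31 lysosomal genes 3 were higher at 6 d and 0 lower, with medians of 0.34 at 6 d and 0.34 at 12 h (13 rises at 12 h, beside 5.21% of all units), and Ctsl differed by 0.80 ± 0.13. Smpd1, another of the 3, differed by 0.72 (adjusted p = 0.0446), which no longer passed whichever array of either time was left out, nor without the dye term. Of 27 ribosomal protein genes 1 was lower at 6 d, Rps9, at -0.52 ± 0.13, with medians of -0.32 at 6 d and -0.15 at 12 h. The falls among ribosomal proteins numbered 17 at 6 d and 3 at 12 h, beside 6.48% of all units below FGF-2 at 12 h, while the difference itself passed for that 1 gene, a call lost when any 1 array was left out. Of 106 solute carriers 6 were higher at 6 d and 0 lower.

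Against PDGF-AA at the same 6 d, a single unit passed (0.00796%), with 1100 at an unadjusted p under 0.05. It was Entpd2, with 2.34, 2.35, 2.28 and 1.71 without factor, against 0.45, 0.55, 0.79 and 1.10 with PDGF-AA. The arrays did not overlap, which held for 2.65% of all units, and the difference was 1.45 ± 0.17 (adjusted p = 0.00203). The call was lost without the dye term (adjusted p = 0.341) and with only the 6 d arrays fitted (adjusted p = 0.0697), and under the other alternatives the adjusted p from limma lay between 0.00457 and 0.0142. The next genes by p did not pass: Atrn differed by 1.04 ± 0.17 (adjusted p = 0.0785), Tiam2, an activator of the GTPase Rac, by 1.19 ± 0.20 (adjusted p = 0.0789), Scarb2 by 0.72 ± 0.14 (adjusted p = 0.253) and Jun by 0.90 ± 0.18 (adjusted p = 0.256). Replicate 4 with PDGF-AA was the highest of its group for Cdkn1c at 4.68, against -0.34, 1.42 and 2.69, and for Pdgfra at 2.71, against 0.52, 0.08 and 0.29. It was the lowest for Mcm6 at -1.78, against 0.75, -0.18 and -0.16, and for Rrm2 at -1.46, against 0.83, 0.06 and -0.33. Replicate 4 without factor was the lowest of its group for Cdkn1c and Pdgfra, at 0.71 and -0.60, and nearest to 0 for Rrm2, at -0.76. Itm2a went the other way, with replicate 4 of PDGF-AA lowest at 0.71, and how many genes did either was not counted. Without replicate 4 of PDGF-AA 58 units passed, 47 higher without factor and 11 lower. No array without factor then shares the number in its title with a PDGF-AA array, so treatment and title number cannot be told apart in that count.

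Both 6 d groups share the FGF-2 reference, so their values are only set side by side. The astrocyte median was 0.76 without factor and 0.18 with PDGF-AA, with 10 and 3 rises, beside 6.99% and 1.9% of all units. The lysosomal median was 0.34 without factor and 0.03 with PDGF-AA, with 14 and 4 rises. The mitosis median was -0.71 without factor and -0.32 with PDGF-AA, with 33 and 6 falls, beside 6.73% and 1.32% of all units. In none of these lists did a gene other than Entpd2 pass the direct comparison. Cst3, Mmp2 and Sirt2 were at -2.22, -1.80 and 3.09 without factor and at -2.06, -1.83 and 2.63 with PDGF-AA.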

How the data were processed

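RNA (40 micrograms per sample) was labelled with Cy3 or Cy5 and hybridised to mouse cDNA chips of about 15000 spots, per the labels' protocols. The values used are the deposited log2 ratios, 1 per feature and array: that the base is 2 was assumed, and background correction, normalisation and filters are not given in the sources used here. Spot intensities were not used, so how far spots stood above background is unknown, and precision is limited by the array number. There were 15151 features. Symbols came from the mouse annotation of the chip, 8833 features having exactly 1. Arrays were centred on their median and features of 1 symbol averaged. All 16 arrays entered 1 linear model (limma 3.58.1, R 4.3.3) with a term per group and for the dye, which passed in 39.1% of units. Tests were two-sided with Benjamini-Hochberg adjustment over 12559 units, and the procedure was tested on simulated data. The reference counts as 1 control sample, whose own spread is left out. Named genes were the 20 largest changes each way with 1 sign on all arrays and features, up to 8 passing members of each of 43 lists, and the 10 largest differences each way (the 5 smallest p against PDGF-AA). Defining markers and a few members outside this rule were named after their values were seen. Members and lists were chosen with earlier results of these data known.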

Additional observations from a re-analysis of the deposited data

Results flagged for a closer look

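Single arrays of no factor 6 d stood apart from the other 3 in 14 of 298 sets of values examined, and replicate 4 was that array in 8. For independent values of 1 normal distribution, such a gap arises in about 1 in 20 sets. The values here still held the dye effect and the genes had been chosen for their changes, so that rate may not apply. The measure is the gap of the end array to its neighbour as a share of the whole range, set against Dixon's critical value. Replicate 4 was the array apart for Entpd2 (0.899), Tnc (0.831), Mthfd2 (0.886), Mrpl10 (0.864), Rdx (0.83), Slc22a17 (0.969) and Slc44a2 (0.886), and for the median of the BMP, TGF-beta and Id list (0.913). Replicate 3 was apart for Ftl1 (0.89), Snrpb2 (0.87) and Lsm8 (0.852), replicate 1 for Cst3 (0.835) and Tspan3 (0.859), and replicate 2 for Itm2a (0.858).

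The effect without factor differed between 6 d and 12 h, by the test of the difference in limma, for 49 of the named genes, given as 6 d minus 12 h on the log2 scale. Of these 25 still passed whichever array of either time was left out, and 24 did not. Higher at 6 d among membrane, adhesion and cytoskeletal genes were Entpd2 (1.83), Itm2a (1.90), Gja1 (1.56), Alcam (1.14), Cd9 (0.86), Sdc4 (0.84), Mcam (1.87), Epb41l2 (1.83), Shroom2 (1.65), Sema6d (1.58), Atrn (1.28) and Tmcc2 (1.72). Higher among secreted and matrix genes were Clu (2.46), Igf2 (1.50), Pdgfa (1.49), Col3a1 (0.89) and Adamts4 (1.11). Higher among enzymes, transporters and lysosomal genes were Sirt2 (2.42), Abhd3 (1.05), Ctsl (0.80), Smpd1 (0.72), Pfkl (0.58), Slc2a1 (0.61), Slc6a8 (1.17) and Slc15a4 (0.70). Genes of the cell cycle that stood nearer to the reference at 6 d were Rrm2 (1.23), Mcm6 (1.34), Top2a (1.42), Dctpp1 (0.84), Cdkn2c (0.92) and Ccne1 (0.89). Also higher were Jun (1.06), Pbx3 (1.75), Spsb1 (1.55), Canx (0.66) and Hnrnpa2b1 (0.51).

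Lower at 6 d were Cst3 (-1.68), Mmp2 (-1.79), Septin9 (-1.09), Gadd45g (-1.64), Smoc1 (-1.54), Cdo1 (-1.34), Snapc2 (-1.21), Glrx (-1.14), Coro2b (-1.04) and Vgll4 (-1.0). The translation, proteasome and splicing genes Rps9 (-0.52), Psmg3 (-0.66) and Snrpb2 (-0.55) were lower as well. The Col3a1 features disagreed in sign. The difference no longer passed without at least 5 of the 8 arrays, each left out singly, for 19 genes: Tmcc2, Alcam, Cd9, Sdc4, Col3a1, Smpd1, Pfkl, Slc2a1, Slc15a4, Rrm2, Mcm6, Dctpp1, Cdkn2c, Ccne1, Hnrnpa2b1, Rps9, Snrpb2, Gadd45g and Cdo1. It was lost without fewer of them for Clu, Spsb1, Adamts4, Glrx and Vgll4. Abhd3, Pdgfa, Top2a, Jun, Canx and Snapc2 kept it whichever array was left out but lost it without the dye term.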

How the results depend on the processing

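Of 250 named genes that passed, 162 kept their call under each of 11 alternatives, 88 lost it under at least one of these and 0 changed sign. Testing every feature by itself, or fitting only the arrays of both 6 d groups or of both no factor times, is not among the 11. Most losses came without the dye term (58), without replicate 1 (58) or without replicate 3 (58), against 27 without replicate 4. The calls of Stmn1, Bmp1, Npm1 and Canx were among those lost without the dye term. No factor 6 d against FGF-2 gave 990 units without the dye term, 1012 to 1481 without one array, and 1189 to 2125 under the other alternatives, the highest with every feature tested by itself, when more were tested. The 6 d minus 12 h difference gave 87 units without the dye term, 143 with the title number as a term, and 111 to 171 without one array. Against PDGF-AA at 6 d the count was 0 without the dye term, 0 with only the 6 d arrays fitted, 2 with arrays scaled to a common spread, and 1 to 58 without one array, the highest without replicate 4 of PDGF-AA. The cause of these shifts was not tested. A number in the array titles splits no factor 6 d into 1 array and 3, which is the loss of replicate 1 above, and leaves 1 array of PDGF-AA 6 d at the number shared with it, too few for a value within that number. No paired analysis was possible because replicate numbers follow deposition order and pair nothing. Depth cannot be judged without intensities.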
